A study of Mus musculus with 7 samples.

Results

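The 34 genes described here are established transcriptional targets of p53, taken by gene symbol from the 29955 genes of the deposited table and followed across fibroblasts that lack p53. All 34 symbols were found, and all 34 had a mean of at least 10 normalized reads over the libraries, the level that 16900 genes reached and at which genes were tested. The RNA came from mouse embryonic fibroblasts (MEFs) of the C57BL/6 strain, grown without any listed treatment, in 3 genotypes that all carry the p53 knockout. The p53KO Mdm2(C462A) KI group had 2 libraries and adds a knocked-in Mdm2 with the C462A substitution, which lies in the RING domain that the ubiquitin ligase activity of Mdm2 depends on. The p53Mdm2 KO group had 2 libraries and lacks Mdm2 as well as p53. The p53 KO group had 3 libraries, keeps Mdm2 and is the control of both other groups. Nothing in the labels tells separate embryos or cultures apart, so the p-values rest on a spread between libraries that may be technical. In RNA from a whole culture, fewer cells of a type and less RNA per cell cannot be told apart. The series title places the study among functions of Mdm2 that do not need p53, and the comparisons below ask how p53 target transcripts differed between Mdm2 genotypes when p53 itself was absent.

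p53 is a transcription factor that binds DNA as a tetramer, on pairs of short half-sites, and raises the transcription of genes for cell cycle arrest, apoptosis, DNA repair and stress metabolism. Mdm2 marks p53 for degradation and also covers its activation domain, and Mdm2 is itself a p53 target, so the pair forms a feedback loop. In fibroblasts with p53, loss of Mdm2 is lethal to the cell, which is why Mdm2 mutants are studied on a p53-deficient background. Most of these target genes also have transcription that does not need p53, driven by other factors such as p63, p73, FoxO proteins or the stress factors Atf4 and Chop.

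Promoter sequence was searched for letters that match p53 half-sites, and p53 binding was not measured. RefSeq promoter windows of the mouse build GRCm38.p6, which run from 250 bases before to 50 bases after a start, were at hand for 26 of the 34 genes. They were searched for 2 copies of the 10-base p53 half-site consensus with a spacer of 0 to 13 bases. The consensus is a palindrome, so both strands are covered. A pair with at most 1 base outside the consensus was found in 4 of the 26 genes (15.4%) and in 1.24% of all 27025 genes with a window. The 4 genes are Cdkn1a, Bax, Ccng1 and Polk. The stretches below run 5′ to 3′ on the gene's own strand, with the half-sites in capitals.
Cdkn1a, chr17:29090886-29090967, plus strand: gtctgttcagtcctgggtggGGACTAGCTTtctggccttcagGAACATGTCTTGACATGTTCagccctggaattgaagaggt
Bax, chr7:45467070-45467130, minus strand: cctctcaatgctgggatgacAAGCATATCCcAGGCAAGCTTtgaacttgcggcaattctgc
Ccng1, chr11:40755442-40755501, minus strand: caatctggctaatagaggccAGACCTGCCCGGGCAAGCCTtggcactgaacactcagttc
Polk, chr13:96519378-96519437, minus strand: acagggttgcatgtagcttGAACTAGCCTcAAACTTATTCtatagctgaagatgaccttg
In Cdkn1a the half-site that begins 73 bases before the annotated start shown and the next one, 12 bases further on, have 0 bases outside the consensus. That next one also pairs directly with the last half-site with 1 base outside. Cdkn1a and Polk each have a window at another annotated start, where the closest pair has 5 and 4 bases outside. The pairs begin 212 bases before the start of Bax, 195 before that of Ccng1 and 231 before the annotated start of Polk that is shown. Phlda3, the gene on which the largest part of the results turns, had no such pair in its window. The closest one, capitalised in the 250 bases before its start on the plus strand of chr1:135765835-135766084, has 4 bases outside the consensus.
Phlda3: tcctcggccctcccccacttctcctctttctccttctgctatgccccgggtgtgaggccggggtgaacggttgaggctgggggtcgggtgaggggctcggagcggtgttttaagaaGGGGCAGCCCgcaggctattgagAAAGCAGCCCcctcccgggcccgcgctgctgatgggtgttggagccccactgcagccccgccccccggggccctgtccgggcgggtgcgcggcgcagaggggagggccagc
The absence of a pair says only that these letters are not in the window.

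Levels are given as normalized reads, recovered from the deposited log2 values, and differences on the deposited log2 scale. Libraries held between 28468283 and 41453822 reads in genes, and a gene with no read could still have had up to 3 reads, or 2.65 to 3.86 normalized reads. Every library carried the fibroblast markers, whose 8 genes summed to 530000 to 1009000 normalized reads in p53KO Mdm2(C462A) KI, 586300 to 997700 in p53Mdm2 KO and 844600 to 1579000 in p53 KO. The library p53 KO replicate 1 stood apart in part of these markers, with 3456 normalized reads of Col1a2 and 99.1 of Thy1. The other 6 libraries had at least 175100 and 6592. Of the same 8 markers, p53 KO replicate 1 had the most Col3a1, Vim and S100a4, at 166700, 155400 and 37550 normalized reads. For Col1a1, Pdgfra and Pdgfrb that library was neither the highest nor the lowest. It also had the most Trp63, the gene for p63, at 378 normalized reads, where the other 6 had at most 8.63, and the most Cdh1, at 345. The 6 epithelial markers as a list did not set it apart: they summed to 218 and 730 normalized reads in p53KO Mdm2(C462A) KI, 1261 and 65.7 in p53Mdm2 KO, and 596, 316 and 248 in p53 KO, with 1 of 6 at 0 in each library. The library p53KO Mdm2(C462A) KI replicate 2 had 21320 normalized reads of Ddit3, the gene for Chop, and 3680 of Atf3, where the other 6 had at most 3686 and 426. Of the 34 targets, p53 KO replicate 1 was the highest or the lowest library for 22 (64.7%, against 54.5% of genes tested), and p53KO Mdm2(C462A) KI replicate 2 for 15 (44.1%, against 42.7%). For several results that rest on either library, but not for all, the value without it is also given.

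Transcripts of the p53 gene itself were read in every library, at 1339 and 1668 normalized reads in p53KO Mdm2(C462A) KI, 1603 and 1775 in p53Mdm2 KO, and 687, 1396 and 1244 in p53 KO. Mdm2 had 2033 and 2887 normalized reads in p53KO Mdm2(C462A) KI, 1575 and 2334 in p53Mdm2 KO, and 1746, 1994 and 1914 in p53 KO. These counts cover whole genes and the labels do not name the deleted exons, so they check neither knockout. Mdm4, the Mdm2 partner that restrains p53, had 1025 and 2156 normalized reads in p53KO Mdm2(C462A) KI, 760 and 1263 in p53Mdm2 KO, and 668, 395 and 929 in p53 KO. The group means of Mdm4 differed by 1.22 ± 0.472 (SE) on the log2 scale between p53KO Mdm2(C462A) KI and p53 KO, with a limma adjusted p of 0.462, and by 0.69 without p53KO Mdm2(C462A) KI replicate 2. Of the 28 genes of the list of p53, its relatives and its regulators, 27 were tested and 0 were called in any comparison. In p53KO Mdm2(C462A) KI 14 of the 27 were higher than in p53 KO and 18 higher than in p53Mdm2 KO, or 10 and 15 without its replicate 2. In p53Mdm2 KO 13 were higher than in p53 KO, or 17 without p53Mdm2 KO replicate 1. Of all genes tested, 51.15% were higher in p53KO Mdm2(C462A) KI than in p53 KO and 51.69% higher than in p53Mdm2 KO. For p53Mdm2 KO against p53 KO that share was 48.22%. Trp73, the gene for p73, had at most 1.29 normalized reads in any library.

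No p53 target passed the threshold, an adjusted p under 0.05 in limma's test over all genes, in any of the 3 comparisons. The same held for all genes: 0 of 16900 (0.0%) were called for p53KO Mdm2(C462A) KI against p53 KO, 0.0% for p53KO Mdm2(C462A) KI against p53Mdm2 KO and 0.0% for p53Mdm2 KO against p53 KO, and voom on the recovered reads also called 0. At an unadjusted p under 0.05, 4 targets stood between p53KO Mdm2(C462A) KI and p53 KO (Phlda3, Trp53inp1, Pltp and Bbc3), where 10.4% of genes did. Between p53KO Mdm2(C462A) KI and p53Mdm2 KO there were 3 (Phlda3, Trp53inp1 and Pltp), where 2.98% of genes did. Between p53Mdm2 KO and p53 KO there was 1 (Phlda3), where 3.0% of genes did. The median difference of the 34 targets was 0.24 for p53KO Mdm2(C462A) KI against p53 KO, beside 0.01 over all genes, with 21 targets higher and 13 lower. Without p53KO Mdm2(C462A) KI replicate 2 that median was -0.044 and 16 targets were higher, and with p53 KO replicate 1 left out too, 17 were. For p53KO Mdm2(C462A) KI against p53Mdm2 KO the median was 0.10, beside 0.01 over all genes, again with 21 higher and 13 lower. For p53Mdm2 KO against p53 KO it was -0.03, beside -0.01, with 16 higher and 18 lower. In the same order, 61.76%, 61.76% and 47.06% of the targets were higher, beside 51.15%, 51.69% and 48.22% of all genes. The comparisons with p53 KO share its 3 libraries.

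**Figure D1:**
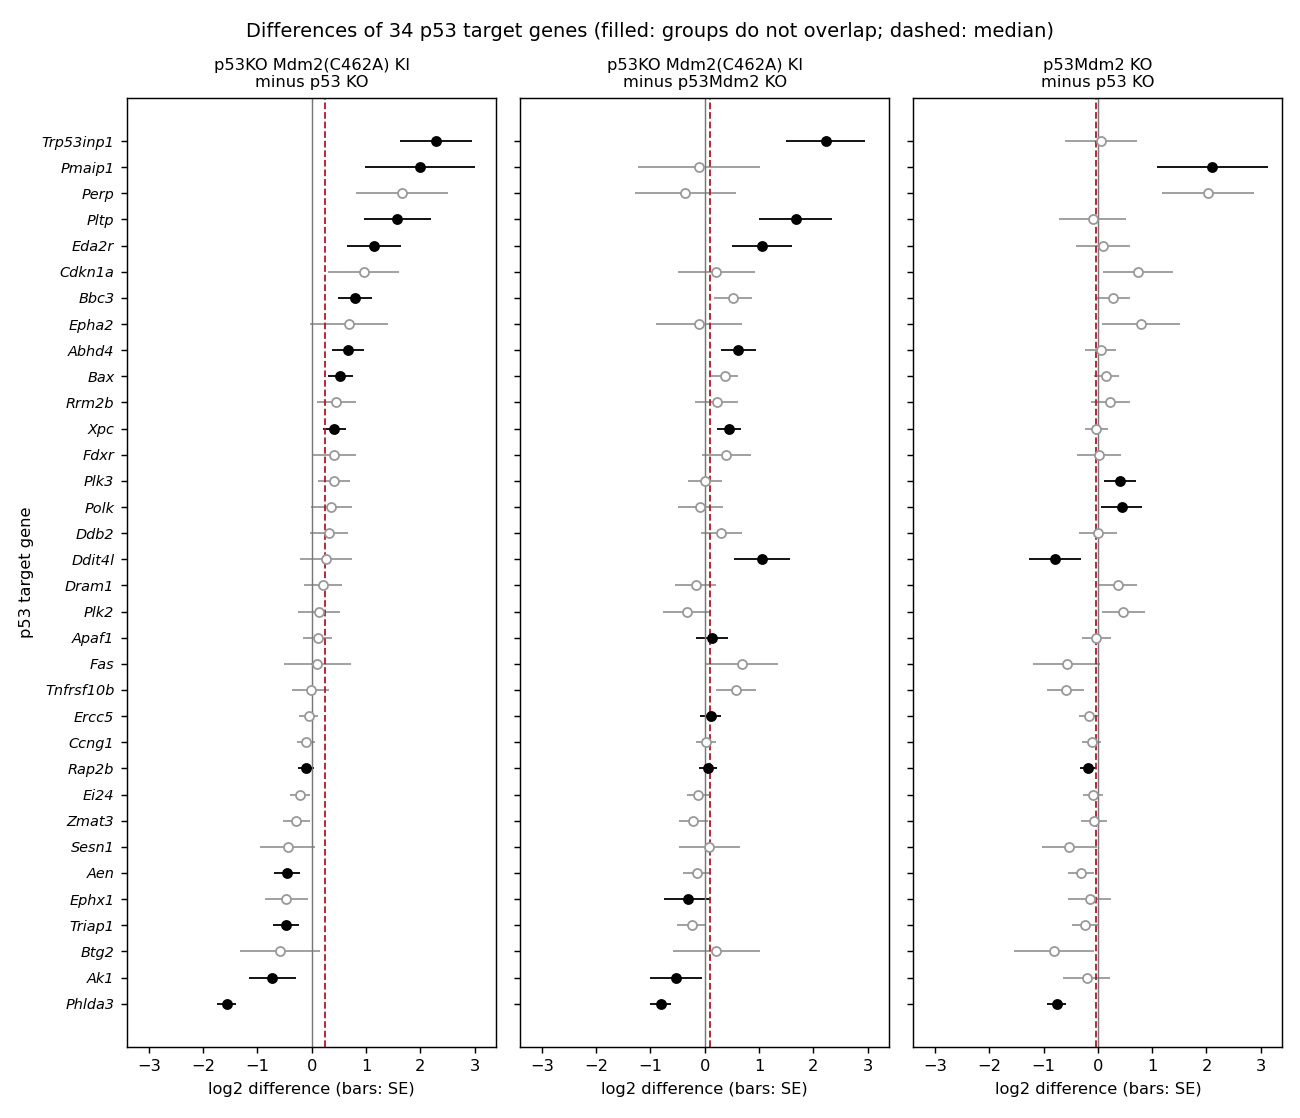
Difference in group means of each of the 34 p53 target genes (rows) on the deposited log2 scale, with bars of 1 standard error, for the 3 comparisons; filled points mark genes whose libraries do not overlap between the groups, and the dashed line is the median of the 34 genes. Phlda3 lies lowest in the panels of p53KO Mdm2(C462A) KI, at -1.57 and -0.81, and Trp53inp1 highest, at 2.29 and 2.23.

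Targets whose libraries did not overlap between 2 groups were counted separately. In p53KO Mdm2(C462A) KI against p53 KO, 8 targets lay entirely higher (Bax, Bbc3, Pmaip1, Trp53inp1, Eda2r, Xpc, Pltp and Abhd4), where 14.1% of genes did, and 5 entirely lower (Aen, Phlda3, Triap1, Ak1 and Rap2b), where 14.4% of genes did. In p53KO Mdm2(C462A) KI against p53Mdm2 KO, 9 lay entirely higher (Apaf1, Trp53inp1, Eda2r, Xpc, Ercc5, Pltp, Abhd4, Ddit4l and Rap2b), against 15.8% of genes, and 3 entirely lower (Phlda3, Ephx1 and Ak1), against 17.1%. In p53Mdm2 KO against p53 KO, 3 lay entirely higher (Plk3, Pmaip1 and Polk), against 8.99% of genes, and 3 entirely lower (Phlda3, Ddit4l and Rap2b), against 9.2%. As shares of the 34 targets these were 23.5%, 14.7%, 26.5%, 8.82%, 8.82% and 8.82% in the order given.

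Phlda3 was the target whose groups were furthest apart relative to the spread between libraries. It encodes a small protein with a pleckstrin homology domain that competes with Akt for membrane lipids. It had 646 and 562 normalized reads in p53KO Mdm2(C462A) KI, 1018 and 1133 in p53Mdm2 KO, and 2010.0, 1656 and 1827 in p53 KO. No group overlapped another: both p53KO Mdm2(C462A) KI libraries were lowest, both p53Mdm2 KO libraries lay between, and all 3 p53 KO libraries were highest. The group means were 604 ± 59.2 in p53KO Mdm2(C462A) KI, 1075 ± 81.5 in p53Mdm2 KO and 1831 ± 177 in p53 KO (SD, n = 2, 2 and 3). Of the 34 targets, only Phlda3 had this order without overlap, as did 245 of 16900 genes (1.45%), while the opposite order was found for 0 targets and 1.3% of genes.

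The Phlda3 difference from p53 KO was -1.57 ± 0.174 on the log2 scale (SE) in p53KO Mdm2(C462A) KI, with an unadjusted p of 7.1e-05, the fourth smallest of 16900 genes, and a limma adjusted p of 0.2998. In p53Mdm2 KO it was -0.75 ± 0.174, with an unadjusted p of 0.00422 and a limma adjusted p of 1.0. Between p53KO Mdm2(C462A) KI and p53Mdm2 KO it was -0.81 ± 0.191, with an unadjusted p of 0.00455 and a limma adjusted p of 1.00. With both outlying libraries left out the differences were -1.40, -0.69 and -0.72 in the same order. Under all 18 alternatives each of the 3 differences kept its sign and an unadjusted p under 0.05. Within p53 KO the libraries of Phlda3 spanned 0.28 on the log2 scale, where the median target spanned 0.92. Without p53 KO replicate 1 the median target spanned 0.26. The log2 values of Phlda3 in p53 KO replicates 2 and 3 were 10.71 and 10.85.

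**Figure D2:**
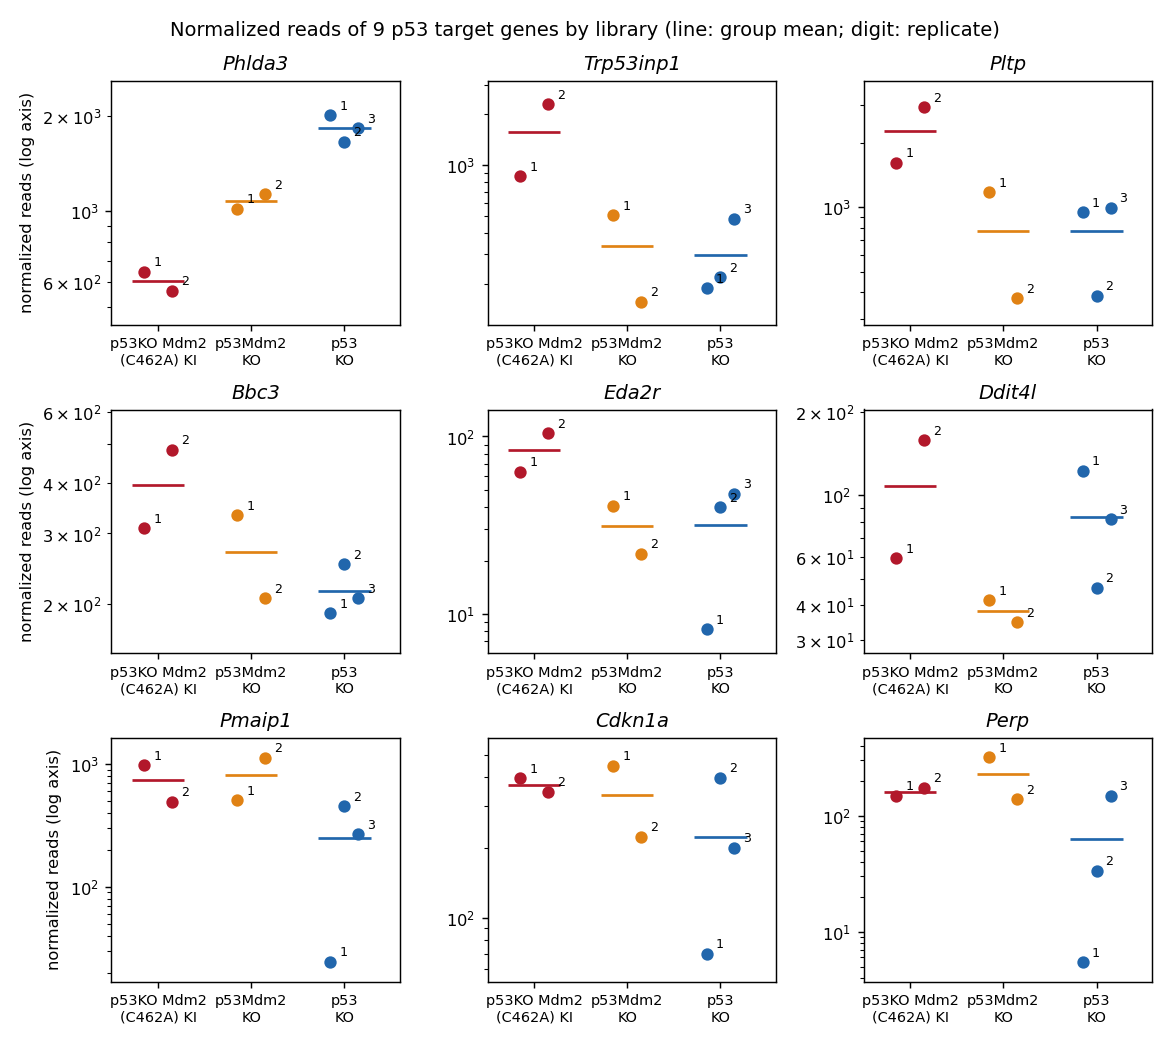
Normalized reads (log axis) of 9 p53 target genes in each library, with the replicate number beside each point and a line at the group mean, for p53KO Mdm2(C462A) KI (n = 2), p53Mdm2 KO (n = 2) and p53 KO (n = 3). The 3 groups of Phlda3 do not overlap, while Pmaip1, Cdkn1a and Perp have their lowest value in p53 KO replicate 1.

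Among the 6 genes of cell cycle and growth arrest, none had an unadjusted p under 0.05 in any comparison. Cdkn1a, which encodes the cyclin-dependent kinase inhibitor p21, had 397 and 347 normalized reads in p53KO Mdm2(C462A) KI, 448 and 223 in p53Mdm2 KO, and 70.0, 399 and 199.5 in p53 KO. The groups overlapped, and p53 KO spanned more than both other groups, its replicate 1 being the lowest library of the 7. The group means differed by 0.95 ± 0.652 (SE) between p53KO Mdm2(C462A) KI and p53 KO (limma adjusted p = 0.657) and by 0.74 ± 0.652 between p53Mdm2 KO and p53 KO (limma adjusted p = 1.0). Without p53 KO replicate 1 these were 0.37 and 0.15, and without p53 KO replicate 2 they were 1.48 and 1.27. Btg2, an antiproliferative regulator of mRNA deadenylation, had 402 and 602 normalized reads in p53KO Mdm2(C462A) KI, 406 and 439 in p53Mdm2 KO, and 2297, 409 and 440.1 in p53 KO. Here p53 KO replicate 1 was the highest library, and without it the difference of -0.59 between p53KO Mdm2(C462A) KI and p53 KO became 0.21.

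The other 4 genes of cell cycle and growth arrest had no library far from the rest. Ccng1, the gene for cyclin G1, averaged 2170.0 ± 48.7 normalized reads in p53KO Mdm2(C462A) KI, 2157 ± 278 in p53Mdm2 KO and 2336 ± 236 in p53 KO (SD, n = 2, 2 and 3). Zmat3, an RNA-binding zinc finger protein, averaged 1218, 1422 and 1511 normalized reads in the same order of groups. The polo-like kinase genes Plk2 and Plk3 had their lowest value in p53 KO replicate 3, at 3777 and 483 normalized reads, and a highest value 2.21 times the lowest in both. Plk3 averaged 920 ± 209 in p53KO Mdm2(C462A) KI, 906 ± 4.39 in p53Mdm2 KO and 699 ± 197 in p53 KO.

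**Figure D3:**
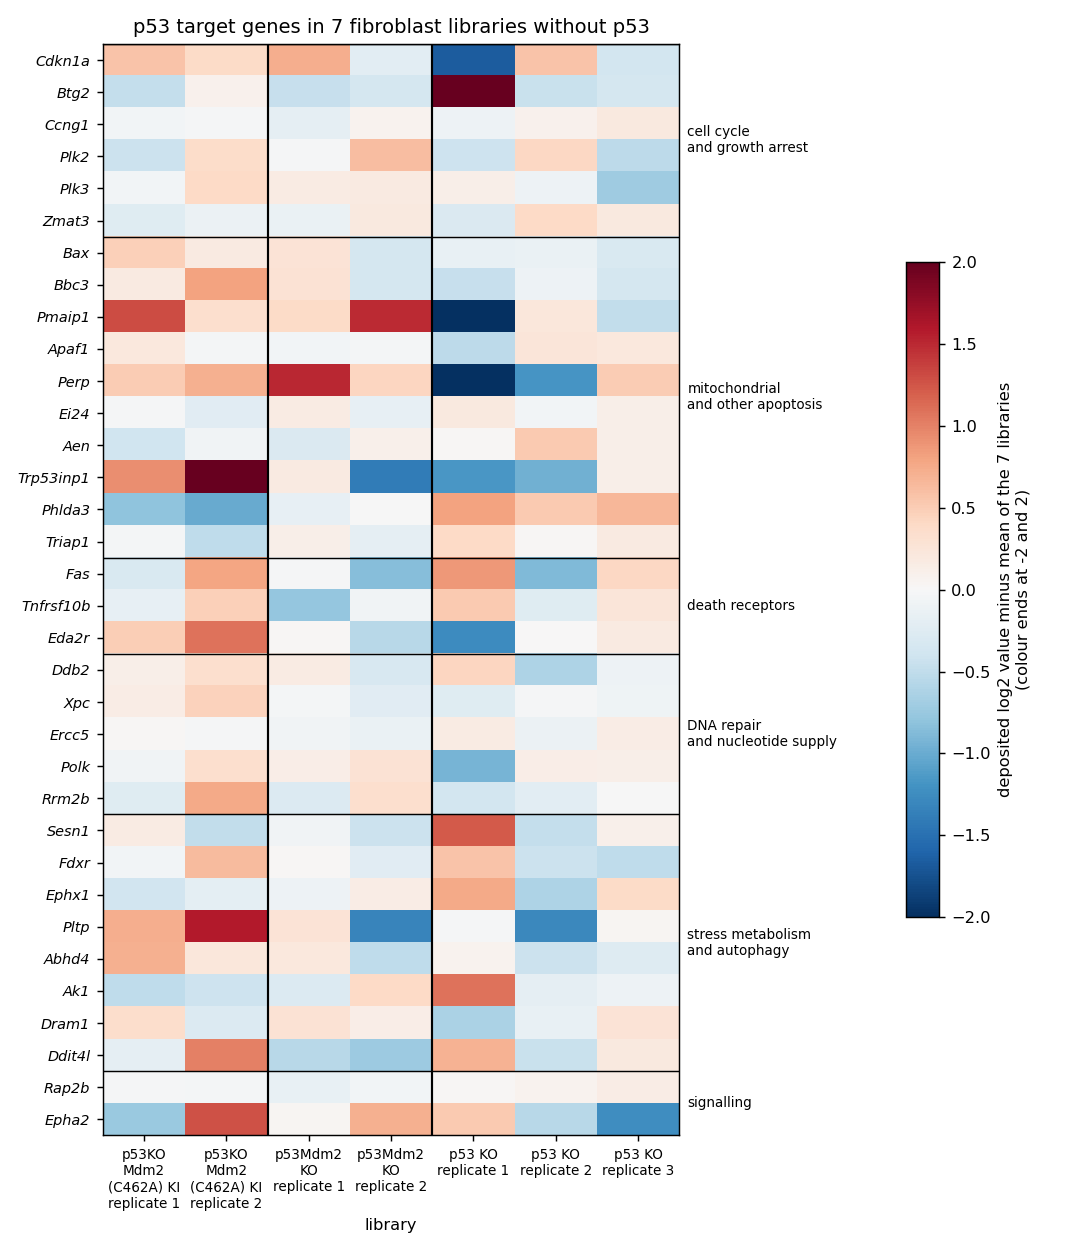
Deposited log2 value of each of the 34 p53 target genes (rows, grouped by role) in the 7 libraries (columns), as the difference from that gene's mean over all libraries; red is above the mean and blue below, and the colour scale ends at 2 in both directions. Columns of the same genotype differ in many rows, above all p53 KO replicate 1, while Phlda3 is blue in both p53KO Mdm2(C462A) KI libraries and red in all 3 p53 KO libraries.

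Of the 10 genes of apoptosis, 2 besides Phlda3 had an unadjusted p under 0.05 in a comparison. Trp53inp1, a stress protein that acts with p53 in apoptosis and takes part in autophagy, had 867 and 2297 normalized reads in p53KO Mdm2(C462A) KI, 509 and 157 in p53Mdm2 KO, and 188, 219 and 485 in p53 KO. Both p53KO Mdm2(C462A) KI libraries lay above the other 5, and the p53Mdm2 KO and p53 KO libraries overlapped. The difference was 2.29 ± 0.664 (SE) for p53KO Mdm2(C462A) KI against p53 KO, with a limma adjusted p of 0.437, and 2.23 ± 0.727 for p53KO Mdm2(C462A) KI against p53Mdm2 KO, with a limma adjusted p of 1.00. Without p53KO Mdm2(C462A) KI replicate 2, the library with the most Ddit3 and Atf3, the differences were 1.60 and 1.54, and the one against p53Mdm2 KO was 1.44 without p53Mdm2 KO replicate 2. The part of that library's stress transcripts in the result was not tested.

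Bbc3 encodes Puma, a BH3-only protein of the mitochondrial death pathway, and was the other of these genes with such a p. It had 309 and 485 normalized reads in p53KO Mdm2(C462A) KI, 333 and 207 in p53Mdm2 KO, and 190.0, 252 and 207 in p53 KO. The p53KO Mdm2(C462A) KI libraries lay above those of p53 KO but overlapped p53Mdm2 KO. The difference from p53 KO was 0.80 ± 0.315 (SE; limma adjusted p = 0.468), and 0.49 without p53KO Mdm2(C462A) KI replicate 2. Bax, the pore-forming effector of the mitochondrial pathway, averaged 3460 ± 522 normalized reads in p53KO Mdm2(C462A) KI, 2731 ± 841 in p53Mdm2 KO and 2389 ± 149.9 in p53 KO (SD, n = 2, 2 and 3). Bax differed by 0.52 ± 0.229 (SE) between p53KO Mdm2(C462A) KI and p53 KO, with a limma adjusted p of 0.495, and by 0.68 without p53KO Mdm2(C462A) KI replicate 2.

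Pmaip1, which encodes the BH3-only protein Noxa, had 979 and 493 normalized reads in p53KO Mdm2(C462A) KI, 506 and 1119 in p53Mdm2 KO, and 24.5, 452 and 268 in p53 KO. All 4 libraries with altered Mdm2 lay above all 3 p53 KO libraries, the nearest being 493 and 452. The difference from p53 KO was 2.00 ± 1.02 (SE) in p53KO Mdm2(C462A) KI (limma adjusted p = 0.556) and 2.11 ± 1.02 in p53Mdm2 KO (limma adjusted p = 1.0). Without p53 KO replicate 1 these were 0.96 and 1.07. Perp, a membrane protein of desmosomes that can promote apoptosis, had 148 and 174 normalized reads in p53KO Mdm2(C462A) KI, 317 and 139 in p53Mdm2 KO, and 5.45, 33.4 and 149 in p53 KO. The low values were p53 KO replicates 1 and 2, and p53 KO replicate 3 lay among the other groups. Its differences from p53 KO were 1.67 ± 0.847 and 2.03 ± 0.847 (SE) in p53KO Mdm2(C462A) KI and p53Mdm2 KO, and 0.95 and 1.31 without p53 KO replicate 1.

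The other apoptosis genes differed less. Apaf1, the core of the apoptosome, averaged 1879 normalized reads in p53KO Mdm2(C462A) KI, 1702 in p53Mdm2 KO and 1781 in p53 KO. Ei24, an endoplasmic reticulum protein, averaged 1895, 2081 and 2200 in the same order. Aen, a nuclease active in apoptosis, averaged 1401, 1554 and 1943, and Triap1, a small mitochondrial protein that restrains cell death, averaged 386, 456 and 538. The p53KO Mdm2(C462A) KI libraries of Aen and Triap1 lay below those of p53 KO without overlap, the nearest being 1561 and 1667 normalized reads for Aen and 452 and 471.5 for Triap1.

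The 3 death receptor genes all had a higher mean in p53KO Mdm2(C462A) KI than in p53Mdm2 KO, and the libraries of those groups overlapped for Fas and Tnfrsf10b. Eda2r encodes the receptor of ectodysplasin A2 and was the least read of the 34 genes per length. It had 63.2 and 104 normalized reads in p53KO Mdm2(C462A) KI, 40.8 and 21.9 in p53Mdm2 KO, and 8.18, 39.9 and 47.5 in p53 KO. Both p53KO Mdm2(C462A) KI libraries were above the other 5. The differences were 1.15 ± 0.503 (SE) against p53 KO (limma adjusted p = 0.497) and 1.05 ± 0.551 against p53Mdm2 KO (limma adjusted p = 1.00), and the one against p53 KO was 0.69 without p53 KO replicate 1. Fas, the receptor of the Fas ligand, averaged 236 ± 131 normalized reads in p53KO Mdm2(C462A) KI, 135 ± 60.4 in p53Mdm2 KO and 229 ± 129.9 in p53 KO (SD, n = 2, 2 and 3). Tnfrsf10b, the mouse TRAIL receptor, averaged 3452 ± 1054, 2319 ± 780 and 3495 ± 907 in the same order.

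The 5 genes of DNA repair and nucleotide supply had no difference beyond 0.5 on the log2 scale in any comparison, and none had an unadjusted p under 0.05. Xpc, which recognises damage for nucleotide excision repair, averaged 654 ± 105 normalized reads in p53KO Mdm2(C462A) KI, 473 ± 46.2 in p53Mdm2 KO and 482 ± 38.1 in p53 KO (SD, n = 2, 2 and 3). Its p53KO Mdm2(C462A) KI libraries lay above all others, and its difference from p53 KO was 0.42 ± 0.205 (SE; limma adjusted p = 0.540), or 0.20 with both outlying libraries left out. Ddb2, which recognises ultraviolet lesions, averaged 444, 359 and 368 in the same order of groups, and the repair endonuclease gene Ercc5 averaged 710.5, 657 and 743. Polk, a polymerase that copies past lesions, averaged 441, 463 and 356, with its lowest value of 198 in p53 KO replicate 1. Rrm2b, a ribonucleotide reductase subunit, averaged 613, 502 and 418, with its highest value of 825.5 in p53KO Mdm2(C462A) KI replicate 2.

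Among the 8 genes of stress metabolism and autophagy, Pltp stood out. It encodes the phospholipid transfer protein, which moves phospholipids between lipoproteins. Pltp had 1618 and 2931 normalized reads in p53KO Mdm2(C462A) KI, 1177 and 375 in p53Mdm2 KO, and 949, 385 and 994.5 in p53 KO. Both p53KO Mdm2(C462A) KI libraries were highest, and the other groups overlapped. The difference was 1.58 ± 0.616 (SE) against p53 KO (limma adjusted p = 0.466) and 1.68 ± 0.675 against p53Mdm2 KO (limma adjusted p = 1.00), and 1.15 and 1.25 without p53KO Mdm2(C462A) KI replicate 2. Without p53Mdm2 KO replicate 2 the one against p53Mdm2 KO was 0.88. Ddit4l, an inhibitor of mTOR complex 1 signalling, had 59.1 and 158 normalized reads in p53KO Mdm2(C462A) KI, 41.8 and 34.8 in p53Mdm2 KO, and 123, 46.4 and 82.0 in p53 KO. Both p53Mdm2 KO libraries were lowest, and the other groups overlapped. Its difference between p53KO Mdm2(C462A) KI and p53Mdm2 KO was 1.05 ± 0.519 (SE; limma adjusted p = 1.00), and 0.46 without p53KO Mdm2(C462A) KI replicate 2.

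The other 6 of these genes went different ways. Abhd4, a lipase of N-acyl phospholipids, averaged 2385 normalized reads in p53KO Mdm2(C462A) KI, 1571 in p53Mdm2 KO and 1484 in p53 KO, with a difference from p53 KO of 0.67 ± 0.291 (SE; limma adjusted p = 0.493) in p53KO Mdm2(C462A) KI. That difference was 0.43 without p53KO Mdm2(C462A) KI replicate 1 and 1.05 with both outlying libraries left out. Ak1, an adenylate kinase, averaged 338, 507 and 624, and Ephx1, an epoxide hydrolase, averaged 848, 1061 and 1268 in the same order. Sesn1, a sestrin that restrains mTOR complex 1, averaged 583, 539 and 886. Ak1, Ephx1 and Sesn1 all had their highest value in p53 KO replicate 1, at 1021, 1775 and 1518 normalized reads. Fdxr, the mitochondrial ferredoxin reductase, averaged 312, 227 and 238, and Dram1, a lysosomal protein of autophagy, averaged 236, 262 and 204.

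The last pair of genes act in signalling. Rap2b, a small GTPase, was the steadiest target, with between 1098 and 1342 normalized reads in all 7 libraries. Its p53KO Mdm2(C462A) KI libraries had 1199 and 1180.0, its p53Mdm2 KO libraries 1098 and 1173, and its p53 KO libraries 1239, 1273 and 1342, with no overlap between any 2 groups. Epha2, a receptor tyrosine kinase for ephrin A ligands, had its extremes in p53KO Mdm2(C462A) KI replicate 2, at 9522 normalized reads, and p53 KO replicate 3, at 1642. Its averages were 5924 ± 5089 in p53KO Mdm2(C462A) KI, 5219 ± 1714 in p53Mdm2 KO and 3318 ± 2093 in p53 KO (SD, n = 2, 2 and 3).

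All these transcripts were read without p53, and their median level was near that of other genes, while single targets ranged widely. Per kb of exons, the median of the 34 targets was 205 normalized reads in p53KO Mdm2(C462A) KI, 175 in p53Mdm2 KO and 205 in p53 KO, and in p53 KO the median of the 14686 tested genes with an exon length was 238. In p53 KO, 15 of the 34 targets lay above that median. Bax had the highest level per kb in p53 KO, at 2756 ± 173, and Plk2 followed at 1796 ± 686, a step smaller than 2 SD of Plk2. Phlda3 came next at 1276 ± 123, and had 421 per kb in p53KO Mdm2(C462A) KI and 749 in p53Mdm2 KO. At the other end were Trp53inp1 at 55.1 ± 30.2, Perp at 32.1 ± 38.9, Ddit4l at 30.8 ± 14.0 and Eda2r at 6.64 ± 4.35, of which Trp53inp1, Perp and Ddit4l are not separated beyond their spread. Cdkn1a stood at 82.0 ± 61.0, in place 29 of 34. Exon lengths came from GENCODE M21 on GRCm38. Exons of 8 targets overlap those of another gene there (Bax, Cdkn1a, Ddb2, Ei24, Plk3, Pltp, Rap2b and Rrm2b), for Rap2b over 3702 bases, and with no strand setting given, reads of such partners cannot be told apart.

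**Figure D4:**
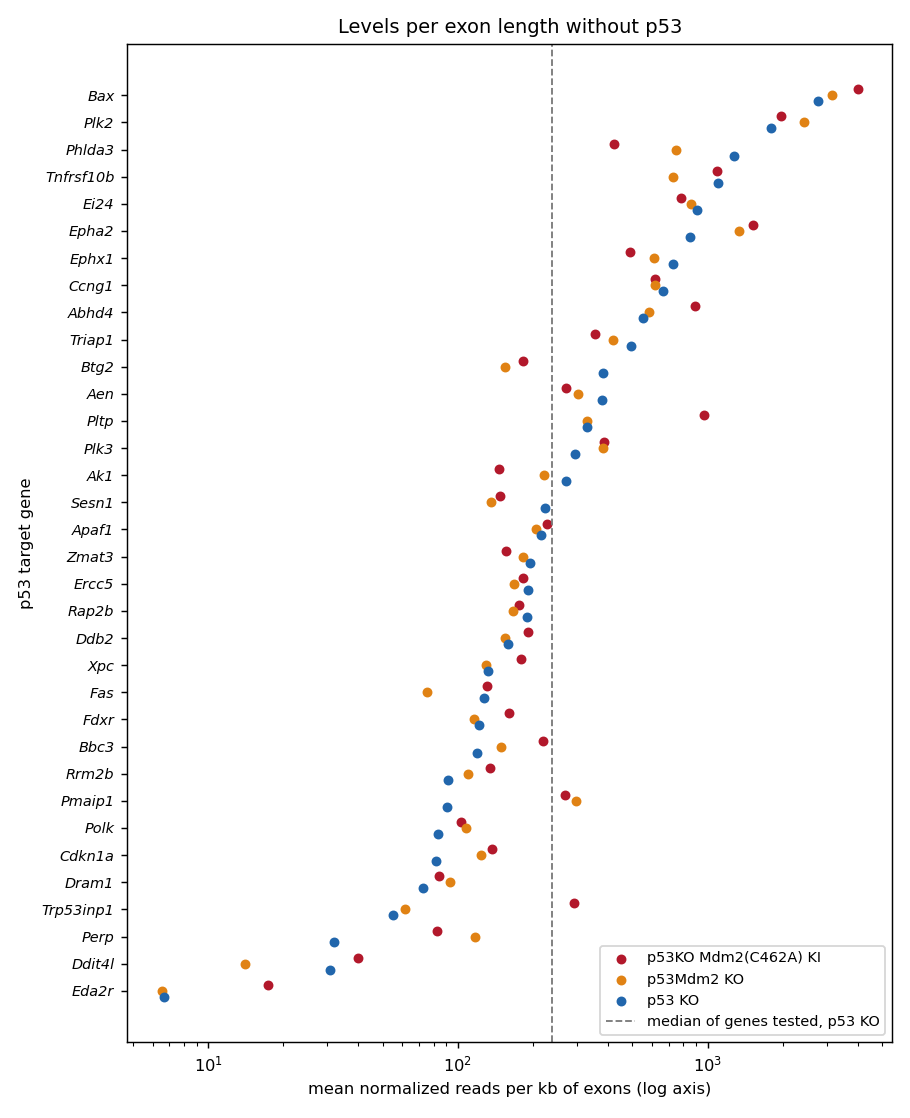
Mean normalized reads per kb of exons (log axis) of the 34 p53 target genes in p53KO Mdm2(C462A) KI, p53Mdm2 KO and p53 KO, in the order of the p53 KO level, with a dashed line at the p53 KO median of tested genes, 238. The targets run from 6.64 per kb (Eda2r) to 2756 per kb (Bax) in p53 KO, with 15 of 34 above the line.

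The median SD over the 7 libraries was 0.45 on the log2 scale for the 34 targets and 0.33 for all genes tested, and without p53 KO replicate 1 it was 0.37 and 0.28. Within p53 KO alone, 16 of 34 targets spanned more than 1 on the log2 scale, a larger share than the 24.4% of genes that did. Without p53 KO replicate 1 only 4 of 34 targets did (Perp, Trp53inp1, Fas and Pltp), again a larger share than the 3.361% of genes. Over all 7 libraries Pmaip1 varied most, with an SD of 1.58, or 0.74 without that library, followed by Perp at 1.36, Trp53inp1 at 1.32 and Pltp at 1.04, and the highest Perp library had 58.2 times the reads of the lowest. At the other end were Rap2b at 0.09, Ercc5 at 0.12, Ccng1 at 0.13 and Ei24 at 0.16. The targets did not move as one: the mean correlation over their 561 pairs across the 7 libraries was 0.02, beside 0.0004 over all pairs of genes tested, and 284 pairs (50.6%) were above 0. These correlations share the same 7 libraries and their depth.

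**Figure D5:**
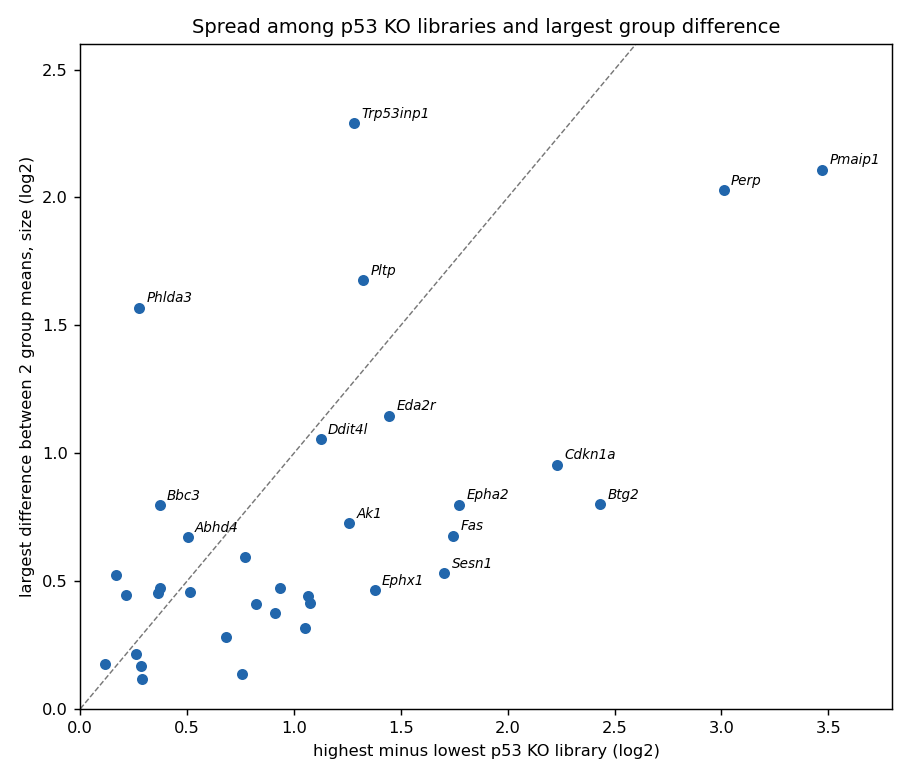
For each of the 34 p53 target genes, the largest difference between 2 group means (size, log2, vertical axis) against the log2 span of the 3 p53 KO libraries (horizontal axis); the dashed line marks equal values. Phlda3 has a difference of 1.57 and a span of 0.28, while Pmaip1, Perp, Cdkn1a and Btg2 lie far below the line.

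p53 KO replicate 1 was the highest library for 11 targets (among them Btg2, Phlda3, Sesn1, Ephx1 and Ak1) and the lowest for another 11 (among them Cdkn1a, Pmaip1, Perp, Eda2r and Polk), so its median target stood only 0.02 from the mean of the libraries. p53KO Mdm2(C462A) KI replicate 2 was the highest for 11 targets, and its median target stood 0.33 above the mean, where the other 6 libraries lay between -0.13 and 0.11.

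Other genes of the pathway were counted in the same way. Of 49 further p53 targets 45 were tested and 0 were called in any comparison. At an unadjusted p under 0.05, 6 of these stood higher and 7 lower in p53KO Mdm2(C462A) KI against p53 KO, 1 higher and 3 lower in p53KO Mdm2(C462A) KI against p53Mdm2 KO, and 1 higher and 2 lower in p53Mdm2 KO against p53 KO. Of all genes tested, 1.2% stood higher and 1.78% lower at that p in p53KO Mdm2(C462A) KI against p53Mdm2 KO. In p53Mdm2 KO against p53 KO 1.51% stood higher and 1.49% lower. In the first of these comparisons 4.98% of all genes tested stood higher and 5.44% lower at that p. Without p53KO Mdm2(C462A) KI replicate 2 the 13 further targets of that comparison became 4, and the 4 of the next became 1, as they did without p53Mdm2 KO replicate 2. Without p53 KO replicate 1 the 3 of the last became 6, while over all genes 507 became 784. Over all genes such counts also fell without the other libraries named here, as given at the end. Slc19a2, a thiamine transporter gene, had 1260 and 1237 normalized reads in p53KO Mdm2(C462A) KI, 1119 and 1196 in p53Mdm2 KO, and 426, 766 and 674 in p53 KO. All 3 p53 KO libraries of Slc19a2 were the lowest of the 7. Its difference from p53 KO was 1.02 ± 0.268 (SE) in p53KO Mdm2(C462A) KI, with a limma adjusted p of 0.437.

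Genes that p53 represses through p21 and the DREAM complex, mostly mitotic genes, had a common direction. All 18 were lower in p53KO Mdm2(C462A) KI than in p53 KO, with a median difference of -1.27 and an unadjusted p under 0.05 for all 18, where 920 of the 16900 genes tested (5.44%) were lower at that p. Without p53KO Mdm2(C462A) KI replicate 2 all 18 were still lower, but the median was -0.83 and 9 had such a p. In p53KO Mdm2(C462A) KI against p53Mdm2 KO all 18 were lower with a median of -0.93, or -0.47 without that library, and in p53Mdm2 KO against p53 KO 17 of 18 were, with a median of -0.37, or -0.17 without p53 KO replicate 1. Without p53Mdm2 KO replicate 1 it was 14 of 18, with a median of -0.18. None of them passed the adjusted threshold in limma's test. Cdc20, the mitotic activator of the anaphase-promoting complex, had 2354 and 1568 normalized reads in p53KO Mdm2(C462A) KI, 3140 and 3920 in p53Mdm2 KO, and 5558, 4451 and 4013 in p53 KO. The 3 groups of Cdc20 did not overlap, and its difference between p53KO Mdm2(C462A) KI and p53 KO was -1.26 ± 0.247 (SE; limma adjusted p = 0.437). The Cdkn1a libraries, given above, overlapped between all 3 groups, and the part of p21 in these differences was not tested.

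Lists of other factors that can drive these targets were read beside them. All 12 Atf4 and Chop targets were higher in p53KO Mdm2(C462A) KI than in p53 KO, with a median difference of 1.67, and 7 had an unadjusted p under 0.05, where 841 of the 16900 genes tested (4.98%) were higher at that p. None passed the adjusted threshold in limma's test. Without p53KO Mdm2(C462A) KI replicate 2 all 12 were still higher, with a median of 0.91, and 1 had such a p. That count was 4 without p53 KO replicate 1, 2 without p53 KO replicate 3 and 1 with the replicate number as a block. In p53KO Mdm2(C462A) KI against p53Mdm2 KO all 12 were higher, or 10 without that library, and in p53Mdm2 KO against p53 KO 10 were, with a median of 0.42. Without p53Mdm2 KO replicate 1, however, 4 of 12 were higher in p53Mdm2 KO and the median was -0.057. Ddit3 had 3686 and 21320 normalized reads in p53KO Mdm2(C462A) KI, 3329 and 1530 in p53Mdm2 KO, and 1052, 1741 and 1348 in p53 KO. Its difference from p53 KO in p53KO Mdm2(C462A) KI was 2.70 ± 0.738 (SE; limma adjusted p = 0.437), and 1.43 without replicate 2. Bbc3, Pmaip1 and Trp53inp1 were counted in the p53 list and not in this one. Sesn2, however, was counted both here and among the further p53 targets. Bbc3 and Trp53inp1 were highest in p53KO Mdm2(C462A) KI replicate 2, the library with the most Ddit3, and Pmaip1 in p53Mdm2 KO replicate 2. Of 15 FoxO targets, 9 were higher and 6 lower in p53KO Mdm2(C462A) KI than in p53 KO (6 and 9 without p53KO Mdm2(C462A) KI replicate 1), 9 and 6 in p53KO Mdm2(C462A) KI against p53Mdm2 KO, and 6 and 9 in p53Mdm2 KO against p53 KO, with 0 called. Of all genes tested, 51.15%, 51.69% and 48.22% were higher in these comparisons, in that order. The part of either list in the p53 targets was not tested.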

How the data were processed

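RNA was sequenced as single 50 bp reads from TruSeq libraries of total RNA, per the labels' protocols. The submitters' processing notes name CASAVA 1.8.2, Bowtie2 2.1.0, DESeq 1.14.0 and mm9. Not given in the sources used here are the counter, its annotation and whether it used strand. The authors deposited 1 log2 value per gene and library, normalized and variance-stabilized, in which 0 reads have the value 3.36 in every library. Inverting that transformation gave normalized reads, and dividing by what 1 read was worth in a library gave whole reads (tolerance 0.05) for 100.0% of values. Limma 3.58.1 (R 4.3.3) was fitted to the deposited log2 values of all 7 libraries with group means and a mean-variance trend. Tests covered 16900 genes, whose mean reached 10 normalized reads, and were two-sided, with Benjamini-Hochberg adjustment and a threshold of 0.05. Descriptions and figures used Python 3.11.15 with pandas 2.3.3, numpy 2.4.6 and matplotlib 3.10.9. The fit was tested on simulated data.

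The 34 genes, the other gene lists and the tests were chosen with earlier results of these data known. Values in every library were given for targets with an unadjusted p under 0.05 in a comparison, or with a difference of at least 1 on the log2 scale between groups that do not overlap. Cdkn1a, Perp, Btg2 and the further values by library were added after their values were seen. From each other list up to 4 genes with the smallest unadjusted p could be named. One of these genes is not reported here. Alternatives covered log2 of normalized reads with another pseudocount, other scaling, voom, no trend, sample weights, other filters, a replicate block, each library left out, and both outlying libraries left out. The spread without p53 KO replicate 1, and the other lists under the same alternatives, were added after seeing the data. The floor of 3 reads covers counting error only, while SDs and SEs come from the spread between libraries.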

Additional observations from a re-analysis of the deposited data

How the results depend on the processing

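Of 56 differences of single genes, each recomputed under up to 18 alternatives, 1002 of 1004 values kept their direction. None passed the adjusted threshold in limma's test, in the fit reported or under any alternative, so the threshold says nothing about their stability, and sizes moved: Cdkn1a in p53KO Mdm2(C462A) KI against p53 KO ran from 0.35 to 1.48 and Eda2r from 0.40 to 1.72. The exceptions in direction were both for Btg2 in p53KO Mdm2(C462A) KI against p53 KO, which was 0.10 with sample weights and 0.21 without p53 KO replicate 1, against -0.59 in the fit reported, and as low as -1.01 without p53 KO replicate 2. The number of genes called was 0 in every comparison and alternative but 1: with both outlying libraries left out, Ifi202b was called in p53Mdm2 KO against p53 KO (1 gene; -6.70 ± 0.299 (SE) on the log2 scale; limma adjusted p = 0.0315). This interferon-inducible gene was named for that call. It had 4.01 and 1286 normalized reads in p53KO Mdm2(C462A) KI, 0 and 1.29 in p53Mdm2 KO, and 3.64, 1361 and 1148 in p53 KO, so the library left out of p53 KO was the one without it. Counts at an unadjusted p under 0.05 ran from 638 to 2317 genes for p53KO Mdm2(C462A) KI against p53 KO, from 61 to 1519 for p53KO Mdm2(C462A) KI against p53Mdm2 KO, and from 345 to 1091 for p53Mdm2 KO against p53 KO, where the fit reported gave 1761, 503 and 507. The lowest counts came without p53KO Mdm2(C462A) KI replicate 2 (638), without p53Mdm2 KO replicate 2 (61) and without p53 KO replicate 3 (345).

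The median difference of the 34 targets in p53KO Mdm2(C462A) KI against p53 KO ran from -0.044 without p53KO Mdm2(C462A) KI replicate 2 to 0.43 without replicate 1, and was 0.0008 with both outlying libraries left out. In the other comparisons it moved by less than 0.158, the SD of the median target between replicates, though in p53Mdm2 KO against p53 KO it lay between -0.12 and 0.07. The replicate block called 0 genes in limma's test, with 1486, 279 and 442 genes at an unadjusted p under 0.05 in the order above and medians of 0.24, 0.10 and -0.0025 for the targets. The deviations of same-numbered libraries correlated between -0.164 and 0.203. In groups of 2 the deviations mirror each other, so these values do not decide whether replicate numbers pair the samples. Depth limits low values, such as 5.45 normalized reads of Perp and 8.18 of Eda2r in p53 KO replicate 1. With 4 residual degrees of freedom, groups of 2 and 3 libraries limit what the adjusted test can call.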
